A study of Mus musculus with 47 samples.

Results

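The genes described here are 10 members of the growth hormone signalling pathway, chosen by name from 22367 protein-coding genes of the mouse annotation: the receptor Ghr, the kinase Jak2, the transducers Stat5a and Stat5b, the repressor Bcl6, the feedback inhibitors Socs2, Socs3 and Cish, and the secreted products Igf1 and Igfals. All 10 were found in the mm9 (NCBIM37) annotation and none was set aside for a low value. Chromatin immunoprecipitation sequencing (ChIP-seq) had been carried out on livers of 7-week-old mice for the repressive mark H3K27me3 and the activating marks H3K27ac and H3K4me1. The 4 groups were males and females of a floxed control and of E1/E2-KO. E1/E2-KO mice lack Ezh1 in every cell and lose Ezh2 only where the albumin promoter drives Cre, that is in hepatocytes, so non-parenchymal cells keep Ezh2. Controls carry the floxed Ezh2 allele (Ezh2 f/f) with no Cre. The comparison asks where the marks that depend on these methyltransferases sit in each sex.

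The labels list 4 livers for each mark and group, except 3 for H3K4me1 in E1/E2-KO females. The deposited lists pool those livers, which leaves 1 list for each mark and group, 12 in all. A region present in 1 list and missing from another is therefore a difference between lists with no replicate check, no p-value or SD can be given, and a missing peak means only that none was called. The lists hold 15603 to 19796 H3K27me3 regions, 29359 to 55930 H3K27ac peaks and 51417 to 69797 H3K4me1 peaks, and the read depth behind them is unknown. The control male H3K27ac list is the shortest of its mark, and the next shortest holds 49702 peaks. The lists do not check the knockout, since Ezh1 and Ezh2 both had an H3K27ac peak at a start in all 4 lists. Of 5 hepatocyte markers 3 had H3K27ac at a start in control males and 4 in each other list, with Serpina1a lacking it in all, and 0 of 4 Kupffer cell markers had it in any list. Endothelial markers were all covered by H3K27me3 in control livers (4 of 4) and mostly uncovered in E1/E2-KO livers (1 of 4) of each sex. Other cell types did not shift so: 3 of 4 stellate and 4 of 4 cholangiocyte markers were covered in every list. Of 4 Kupffer cell markers 2 were covered in each list but E1/E2-KO female, which had 1. The part of the endothelial shift in the results was not tested. Whole liver was used, so fewer cells carrying a mark and less mark per cell cannot be told apart.

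Growth hormone binds the receptor encoded by Ghr, which activates the kinase Jak2, and Jak2 phosphorylates the STAT5 proteins. Phosphorylated STAT5 enters the nucleus, binds the palindrome TTCNNNGAA and raises transcription of Igf1, Igfals, Socs2 and Cish, of which the last pair feed back to dampen the receptor. In rodents the pituitary releases the hormone in pulses in males and near continuously in females, and Bcl6 encodes a repressor that can occupy the same palindromes in liver.

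The palindrome was searched first, because it is the sequence that STAT5 is known to bind. It reads the same on both strands, and a match is a description of letters and not evidence of binding. In the 250 bases before the main start, the start of the transcript with the longest coding sequence, 4 of 10 genes (40%) had a match, namely Bcl6, Socs2, Socs3 and Igfals. Among all 22367 protein-coding genes 1509 (6.75%) had one. The whole windows are shown for Bcl6 and Igfals, which share a palindrome in unlike surroundings, and only the stretch around the matches for Socs2 and Socs3. All are mm9, written 5′ to 3′ on the strand of the gene, with the palindrome in capitals.
Bcl6, chr16:23988939-23989188, minus strand: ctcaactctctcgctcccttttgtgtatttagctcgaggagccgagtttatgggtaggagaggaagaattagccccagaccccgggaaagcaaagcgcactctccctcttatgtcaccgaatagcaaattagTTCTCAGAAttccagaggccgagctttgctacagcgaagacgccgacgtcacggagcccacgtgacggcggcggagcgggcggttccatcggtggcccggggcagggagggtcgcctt
Igfals, chr17:25014350-25014599, plus strand: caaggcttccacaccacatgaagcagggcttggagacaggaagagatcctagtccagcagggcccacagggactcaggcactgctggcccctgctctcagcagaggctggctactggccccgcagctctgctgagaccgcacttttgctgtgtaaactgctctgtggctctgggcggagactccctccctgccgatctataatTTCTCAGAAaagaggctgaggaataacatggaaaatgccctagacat
Socs2, chr10:94879528-94879567, minus strand: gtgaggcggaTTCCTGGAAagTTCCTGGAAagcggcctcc
Socs3, chr11:117830543-117830571, minus strand: ggccgggcagTTCCAGGAAtcggggggcg

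Bcl6 and Igfals carry the same 9 letters, with first bases at -118 and -47 from the start. Socs2 has a tandem pair at -66 and -55, and Socs3 a match at -61. With any annotated start counted, an alternative chosen after seeing the data, Cish joined them, giving 5 of 10 genes (50%) against 3062 of all genes (13.7%). The Cish matches form 4 palindromes in a pair of stretches just inside the gene, which the annotation places in exons, and 3 more lie together 12.8 kb downstream of the main start. The following stretches are shown with the H3K27ac peaks that overlapped them.
Cish, chr9:107198985-107199014, plus strand: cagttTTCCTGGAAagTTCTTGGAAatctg
Cish, chr9:107199093-107199122, plus strand: ggTTCTAGGAAgatgaggcTTCCGGGAAgg
Cish, chr9:107211118-107211222, plus strand: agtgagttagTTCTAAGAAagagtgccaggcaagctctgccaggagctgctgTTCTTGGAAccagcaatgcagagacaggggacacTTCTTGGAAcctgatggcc
Ghr, chr15:3415271-3415457, minus strand: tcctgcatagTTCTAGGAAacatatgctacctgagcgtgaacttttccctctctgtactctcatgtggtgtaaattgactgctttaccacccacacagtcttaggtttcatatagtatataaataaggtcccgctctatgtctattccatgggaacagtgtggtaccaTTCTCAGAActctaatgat
Bcl6, chr16:23981439-23981547, minus strand: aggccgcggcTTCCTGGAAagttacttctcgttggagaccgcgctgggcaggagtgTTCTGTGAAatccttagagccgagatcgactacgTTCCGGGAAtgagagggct
Igf1, chr10:87347750-87347778, plus strand: taaacataagTTCTTAGAActcttggaca

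The first Cish stretch overlapped no H3K27ac peak in any list, and the second did so in control females only. The Cish stretch 12.8 kb from the start and the Igf1 stretch 25 kb into the gene overlapped an H3K27ac peak in all 4 lists. The Ghr stretch, 117.9 kb into the gene, did so in every list but control male, and the Bcl6 stretch, 7.45 kb into the gene, in the female lists alone. Over windows reaching 10 kb beyond each gene, the palindrome occurred 2.4 times per 10 kb at Stat5a to 6.73 times at Cish, and 4.04 times over the genome. In 300 bases around the midpoints of H3K27ac peaks near the 10 genes, 5 of 51 (9.8%) held it in the control male list. The rest had 9 of 74 (12.2%, E1/E2-KO male), 11 of 87 (12.6%, control female) and 10 of 81 (12.3%, E1/E2-KO female), so the shares rest on few peaks. For all H3K27ac peaks those shares ran from 7.87% to 8.48%. No annotated start of Ghr, Jak2, Stat5a, Stat5b or Igf1 had a match in the 250 bases before it.

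H3K27me3 covered Socs2 in control males and Socs2, Socs3 and Igfals in E1/E2-KO males, counts that lie near those of other genes. Coverage is the percent of bases of the gene inside called regions, and a gene was counted as covered from 50%. In control males 1 gene of 10 was covered (29.9% of all genes) and in E1/E2-KO males 3 were (32.5%), while neither female list covered any, 0 in controls (29.8%) and 0 in E1/E2-KO (28.7%). Among the 10481 genes with an H3K27ac peak at a start in all 4 lists, to which all 10 belong, the covered shares were lower, 12.1%, 18.5%, 12.5% and 13.5% in the same order. Coverage was at least 25 percentage points higher in E1/E2-KO than control males at Socs3 and Igfals, which is 2 of 10 genes where 9.86% of all genes were so, and 13.6% of those with constant H3K27ac at a start. It was lower by that much at 0 of 10 in males (6.07%), higher at 0 of 10 in females (6.29%) and lower at 1 of 10 in females, Socs2 (7.59%). Between the control sexes coverage was higher in males at 1 of 10, Socs2 (6.38%), and lower at 0 of 10 (5.28%). Between the E1/E2-KO sexes it was higher in males at 3 of 10, Socs2, Socs3 and Igfals (11%), and lower at 0 of 10 (4.76%). With only the widest 50% of regions every one of these changes, and the covered genes of both male lists, fell to 0. Of 5 hepatocyte markers, Ttr and Serpina1a were at 0% in all 4 lists and Alb at 0% in all but E1/E2-KO females (2.73%). The markers Apoa1 and Hnf4a, at 0% in both control lists, reached 100% and 89.1% in E1/E2-KO males and 50.3% and 71% in E1/E2-KO females, and their part in the result was not tested.

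**Figure D1:**
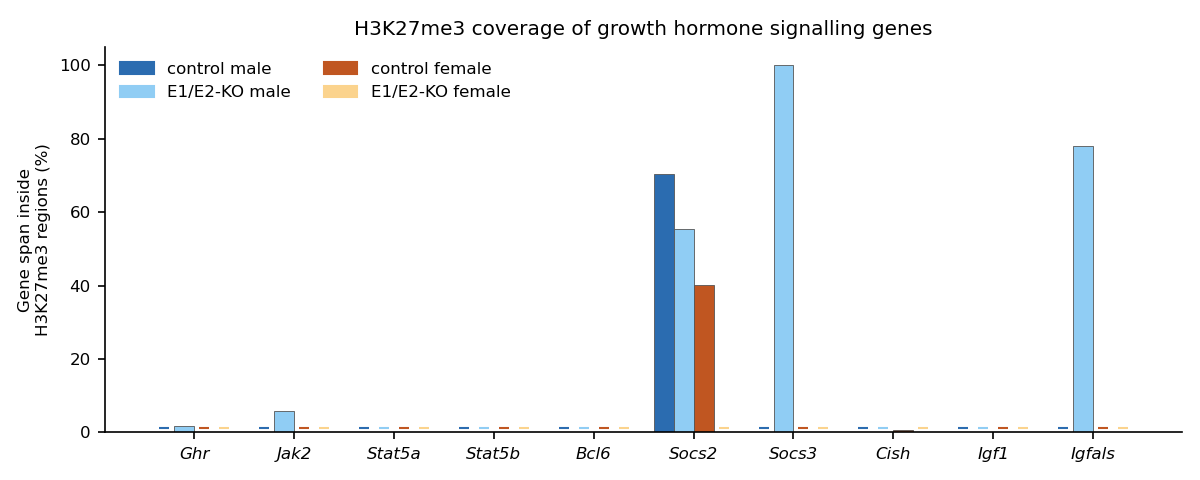
Percent of each gene covered by H3K27me3 regions (vertical axis) in the 4 groups for each of the 10 genes, with short ticks marking 0. Socs3 stands at 100% and Igfals at 78.1% in E1/E2-KO males alone, while Socs2 falls from 70.4% in control males to 0% in E1/E2-KO females.

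Ghr (chr15:3267760-3533492, minus strand, 265.7 kb), the receptor, had 0% H3K27me3 coverage in both control lists and in E1/E2-KO females, and 1.77% in E1/E2-KO males. That small share came from 1 region of 17600 bp, chr15:3528801-3546400, which held the main start. The nearest region lay 130.6 kb away in control males, 132.6 kb in control females and 583.7 kb in E1/E2-KO females. Ghr had 4 H3K27ac peaks within 10 kb in control males, 15 in E1/E2-KO males, 21 in control females and 13 in E1/E2-KO females. Control males were thus the low group and control females the high group, and the E1/E2-KO lists lay between them. Loci, that is peaks of the 4 lists merged where they overlap, numbered 29 for H3K27ac at Ghr, and only 2 were in all 4 lists, at 1.16 and 133 kb into the gene. The locus over the main start was in every list but control male. When each list was cut to its 29359 widest peaks, the numbers became 4, 5, 7 and 6 in that order, and the lists lay closer together. H3K4me1 peaks numbered 9, 10, 6 and 8, and loci 26.6 and 60.9 kb into the gene were in the male lists only. The H3K4me1 locus 201.7 kb into the gene was in the female lists only, and an adjacent locus at 202.2 kb was in E1/E2-KO males only.

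Jak2 (chr19:29326318-29387570, plus strand, 61.3 kb), the kinase bound to the receptor, had its H3K27ac at the same loci in every list. In the order control males, E1/E2-KO males, control females, E1/E2-KO females it had 5, 4, 4 and 5 peaks, and these fell in 4 loci, each in all 4 lists. Among equal numbers of the widest peaks it had 5, 4, 4 and 2. H3K27me3 reached 5.83% of Jak2 in E1/E2-KO males, through a region of 37200 bp at the 3′ end that also held Insl6 and Rln1. In the other lists a region on that side began 2.83 kb (control male), 0.43 kb (control female) and 2.83 kb (E1/E2-KO female) beyond the gene. A separate region upstream of Jak2, 30400 bp in control males and 24000 bp in control females, had no counterpart within 10 kb in either E1/E2-KO list. H3K4me1 peaks numbered 7 in control males and 4, 4 and 3 in the others.

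Stat5b (chr11:100642045-100712038, minus strand) and Stat5a (chr11:100720665-100746483, plus strand) encode the STAT5 transducers and lie 8626 bp apart, so their windows share 2 or 3 H3K27ac peaks in each list. Neither gene had any H3K27me3 coverage in any list. The nearest region lay 10.4 to 14.4 kb from Stat5b and 55.1 to 67.9 kb from Stat5a. Stat5a had 5 H3K27ac peaks in every list, and Stat5b had 10 in both male lists and 13 in both female lists. With equal numbers of the widest peaks Stat5b had 10, 7, 8 and 10, and the difference between control sexes turned round. H3K4me1 ran the other way at Stat5b, with 10 peaks in each male list and 5 in each female list, and it did so with equal numbers too, at 9, 9, 5 and 5. Stat5b loci 8.82, 22.3 and 39.8 kb into the gene had H3K4me1 in the male lists only. Adjacent loci were called in E1/E2-KO females, at 40.3 kb in that list alone and at 21.2 kb in control males too. None of the 24 palindromes in the Stat5b window lay in an H3K27ac peak of any list.

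Bcl6 (chr16:23965138-23988938, minus strand), the repressor, had no H3K27me3 coverage in any list. In E1/E2-KO females regions of 18800 and 23200 bp flanked it, the nearer 1.54 kb away, against 22.3 to 27.9 kb in the other lists. H3K27ac peaks numbered 5 in control males, 7 in E1/E2-KO males, 10 in control females and 10 in E1/E2-KO females. The locus over the main start, with its midpoint at -0.201 kb, and the intronic locus at 7.43 kb were called in both female lists and in neither male list. The intronic locus holds the 3 palindromes printed above, and the 29 bases around the promoter palindrome overlapped a peak in E1/E2-KO females only. Another 4 of the 11 Bcl6 loci were in all 4 lists, 1 of them 0.99 kb inside the gene, so every list had H3K27ac at a Bcl6 start. That locus lies next to the start locus, and another, at 8.42 kb, lies next to the intronic one. The calls in female lists alone thus adjoin H3K27ac present in every list. Cut to equal numbers of the widest peaks, the lists gave Bcl6 5, 4, 5 and 5. H3K4me1 peaks numbered 4, 3, 4 and 2. By percent of the window inside each of the 12 lists, the genes nearest to Bcl6 were Vps29, Ric8 and Rps2, with root mean square differences of 2.6, 2.66 and 2.68 percentage points.

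Socs2 (chr10:94847996-94879814, minus strand, 31.8 kb) encodes an inhibitor that targets the growth hormone receptor. Its gene span was 70.4% covered by H3K27me3 in control males, 55.3% in E1/E2-KO males, 40.2% in control females and 0% in E1/E2-KO females. All of this lay outside the 5.37 kb transcript with the longest coding sequence, which was 0% covered in all 4 lists. The regions, of 23200, 17600 and 12800 bp, overlap long annotated transcripts that run downstream of it, and the first reaches just past their far end, so the values describe that flank and not the coding transcript. H3K27ac peaks numbered 5, 6, 8 and 6, or 5, 3, 3 and 4 among equal numbers of the widest peaks, and 3 of 10 loci were in all 4 lists. The tandem palindromes before the start lay in no H3K27ac peak, in a gap between peaks on either side. H3K4me1 was called at a Socs2 start in both male lists and in neither female list.

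Socs3 (chr11:117827393-117831361, minus strand, 3.97 kb), an inhibitor of cytokine receptors that signal through JAK kinases, was 100% covered by H3K27me3 in E1/E2-KO males and 0% covered in each other list. The E1/E2-KO male region spans chr11:117818401-117841600 (23200 bp). In both control lists a region ended 8.59 kb beyond the 3′ end, and in E1/E2-KO females one of 14000 bp began 0.239 kb upstream. With 3 kb added on each side the gene was 27.7% covered in E1/E2-KO females. H3K27ac was called at the start in all 4 lists, and peaks numbered 2, 3, 4 and 4. The loci 0.531 and 6.3 kb from the start were in all 4 lists, and the second holds a palindrome pair of its own. The promoter palindrome at -61 lay in no H3K27ac peak, since the called signal began inside the gene. H3K4me1 peaks numbered 2, 4, 1 and 1.

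Cish (chr9:107198357-107205115, plus strand, 6.76 kb), a STAT5-induced inhibitor, had most of its H3K27ac in every list. Its peaks numbered 5, 7, 5 and 7, and 5 of 6 loci were in all 4 lists, among them both loci at its starts and the downstream locus with 3 palindromes. Of 18 palindromes in its window, 8 lay in H3K27ac in some list and 3 in all 4 lists. H3K27me3 coverage was 0.651% in control females and 0% elsewhere. Large regions over Dock3 and Mapkapk3, of 74400 bp in control males and 76400 bp in control females, ended 1.56 kb before the gene in males and over its main start in females. In E1/E2-KO males the nearest region was 32.9 kb away and in E1/E2-KO females 26.4 kb. As upstream of Jak2, an H3K27me3 region within 10 kb on that side was thus in both control lists and in neither E1/E2-KO list. Regions farther out were not compared, so they may have been shortened there rather than absent.

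Igf1 (chr10:87321010-87399792, plus strand, 78.8 kb) encodes the growth factor through which much of the hormone's action passes, and it had no H3K27me3 coverage in any list. The nearest region lay 11.8 kb away in control males and 173.8 to 233.4 kb away in the others. H3K27ac peaks numbered 7 in control males, 14 in E1/E2-KO males, 15 in control females and 16 in E1/E2-KO females. Control males alone were low, as at Ghr. Among equal numbers of the widest peaks Igf1 had 7, 5, 7 and 7, and the rise in E1/E2-KO males turned round. Of 21 Igf1 loci 6 were in all 4 lists, among them the one at 25 kb whose palindrome is printed above. H3K4me1 peaks numbered 12, 8, 7 and 5, and loci 33.5, 66.7 and 74.1 kb into the gene were in the male lists only.

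**Figure D2:**
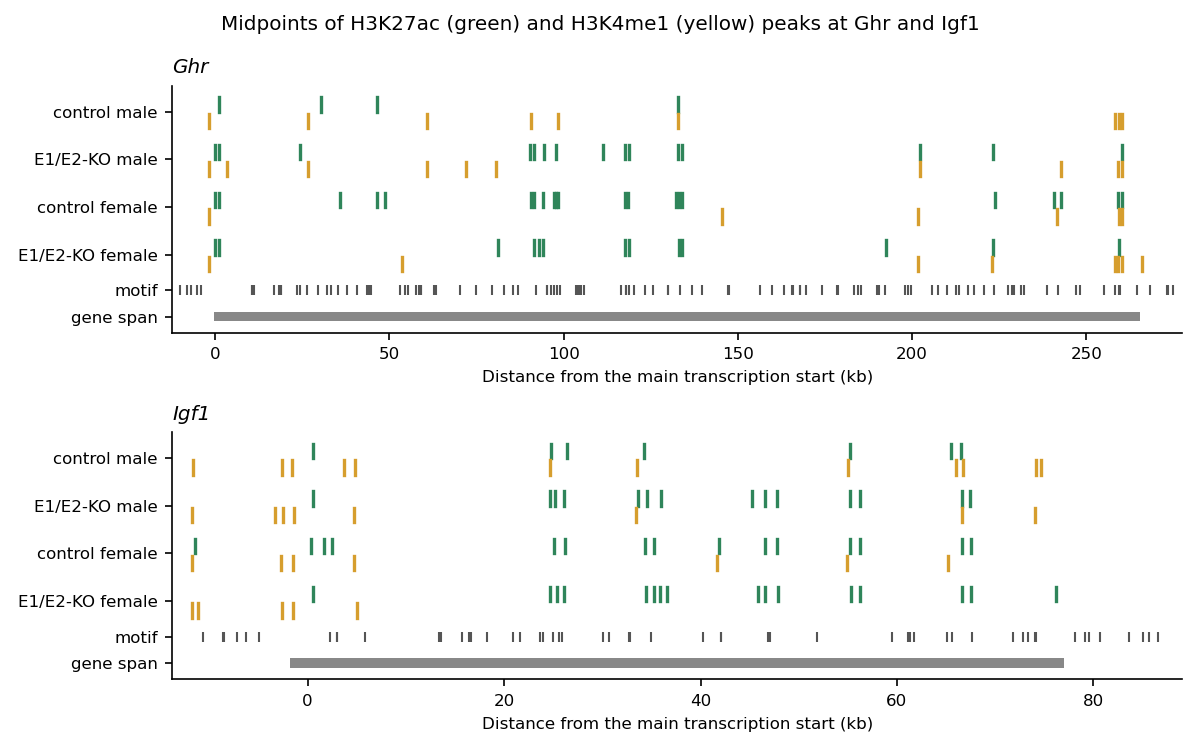
Positions of H3K27ac (green) and H3K4me1 (yellow) peak midpoints along Ghr and Igf1 in each list, by distance from the main start in kb, with ticks for palindrome matches. The control male rows hold 4 H3K27ac peaks at Ghr and 7 at Igf1, fewer than each other list.

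Igfals (chr17:25014600-25018955, plus strand, 4.36 kb), which encodes the protein that holds IGF1 in its circulating complex, was 78.1% covered by H3K27me3 in E1/E2-KO males and 0% in the other lists. The region, chr17:24998401-25018000 (19600 bp), also covers Hagh and takes in the start. The nearest region lay 61.8 kb away in control males, 68.6 kb in control females and 31.8 kb in E1/E2-KO females. H3K27ac was called within 1 kb of a start in all 4 lists, in a locus of 2824 bp, and overlapped a start in every list but control male. Peaks numbered 6, 5, 4 and 4. The promoter palindrome printed above lay in a called peak in both E1/E2-KO lists and in neither control list. H3K4me1 peaks numbered 5, 3, 2 and 1, with a start peak in control males only.

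**Figure D3:**
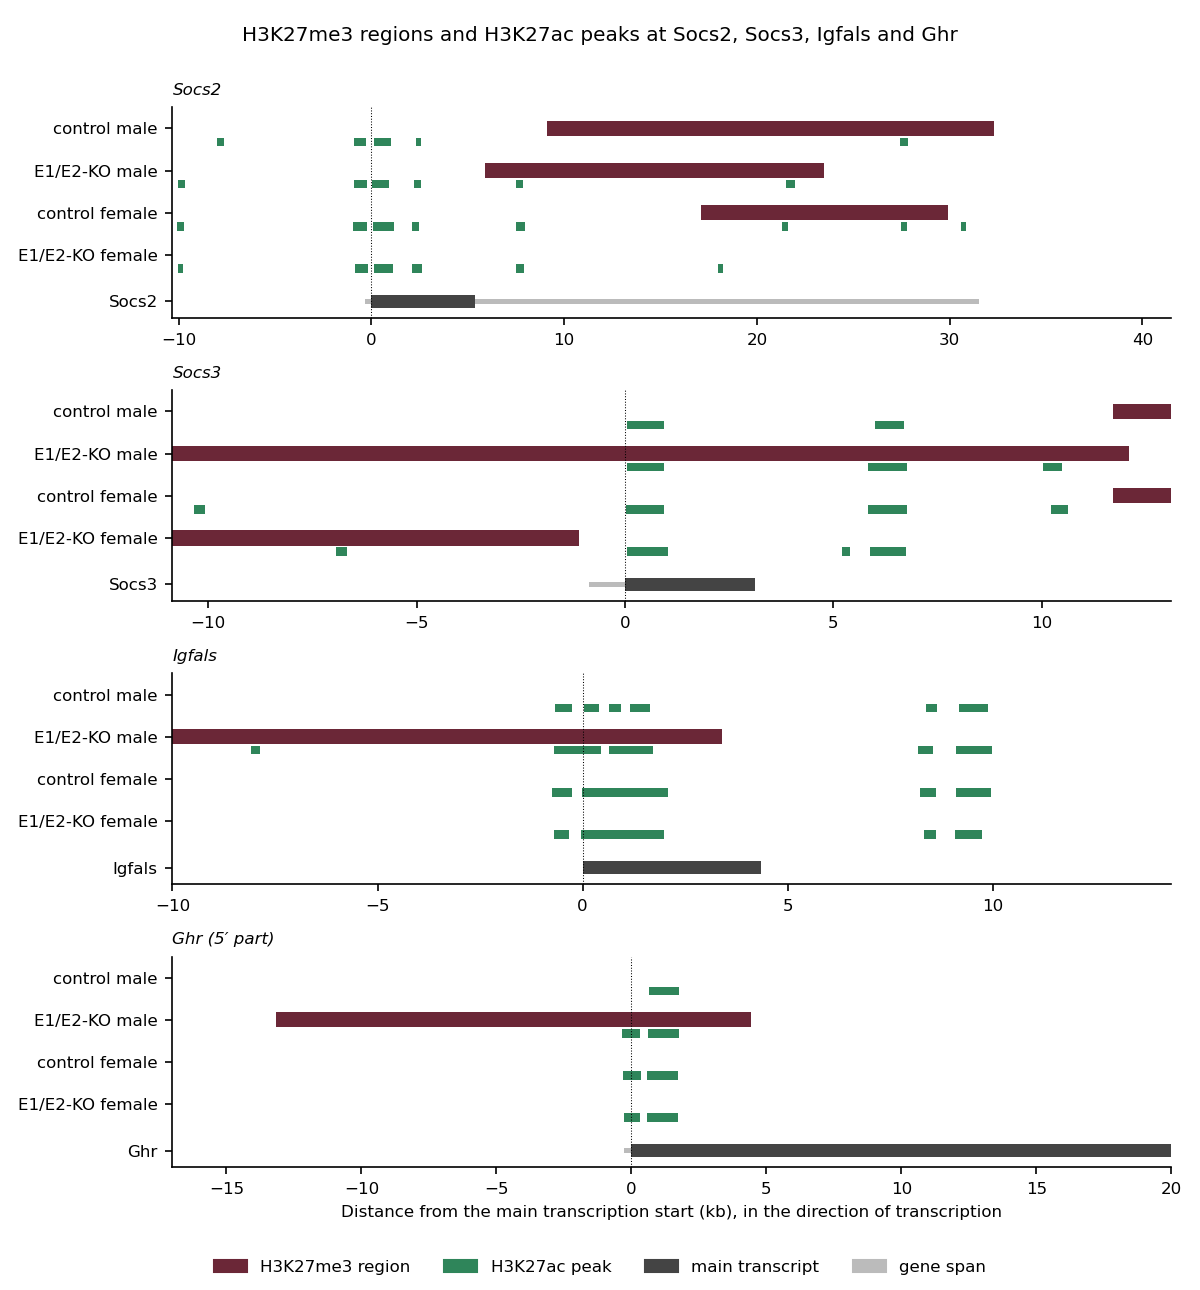
H3K27me3 regions and H3K27ac peaks at Socs2, Socs3, Igfals and the 5′ part of Ghr in the 4 groups, by distance from the main start in kb, with the main transcript dark and the rest of the gene span grey. E1/E2-KO male regions lie over the starts of Socs3, Igfals and Ghr, and Socs2 regions lie beyond its main transcript.

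The main starts of Ghr, Socs3 and Igfals were inside H3K27me3 regions in E1/E2-KO males and outside them in control males, 3 of 10 genes where 9.39% of all genes did so. Among the 10481 genes with constant H3K27ac at a start, the share was 14.7%. All 3 kept an H3K27ac peak at a start in that list, a pairing found at 18.8% of all genes and at 28% of those with constant H3K27ac at a start, so 3 of 10 is close to the usual share. Since whole livers were pooled, the lists do not tell whether both marks lay in the same cells.

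H3K27ac was present at a start of all 10 genes in all 4 lists, where 46.9% of all genes had it in all 4. At a start means within 1 kb of it, and when a peak had to overlap the start itself the count was 6 in control males (27.8% of all genes, and 59% of those with constant H3K27ac at a start). It was then 8 in E1/E2-KO males (37.9% and 73.6%), 8 in control females (38.6% and 76.4%) and 8 in E1/E2-KO females (35.4% and 69.1%), near the second share in each list. The median number of H3K27ac peaks within 10 kb was 5 in control males and 6.5 in each other list, against 1 and 2 over all genes and 2 and 3 over those with constant H3K27ac at a start. These counts were not adjusted for gene length, and some of the 10 genes are long (Ghr spans 265.7 kb). In E1/E2-KO males 6 of 10 genes had more peaks than in control males (44.3% of all genes, and 57.8% of those with constant H3K27ac at a start) and 2 had fewer (4.72% and 7.92%). In control males 6 of 10 had fewer peaks than in control females (39.4% and 53.1%) and 2 had more (5.94% and 9.59%). In E1/E2-KO females 3 had more than in control females (22.9% and 30.3%) and 2 had fewer (19.5% and 28.1%). Between the E1/E2-KO sexes males had more at 2 genes (24.2% and 33%) and fewer at 5 (17.8% and 24.5%). With equal numbers of the widest peaks both comparisons of control males turned round. E1/E2-KO males then had more peaks than control males at 3 genes (15.5% of all genes, and 17.6% of those with constant H3K27ac at a start) and fewer at 7 (19% and 32.1%). Control males then had fewer than control females at 2 genes (16% and 20.5%) and more at 6 (17.8% and 29.3%), so the turn was also seen over all genes. Between the E1/E2-KO sexes males then had more at 3 genes (14.4% and 20.1%) and fewer at 5 (15.9% and 23.1%), with all genes in the same order. E1/E2-KO females then had more than control females at 3 genes (15.9% and 21.2%) and fewer at 4 (15.7% and 24.2%), which also turned round.

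**Figure D4:**
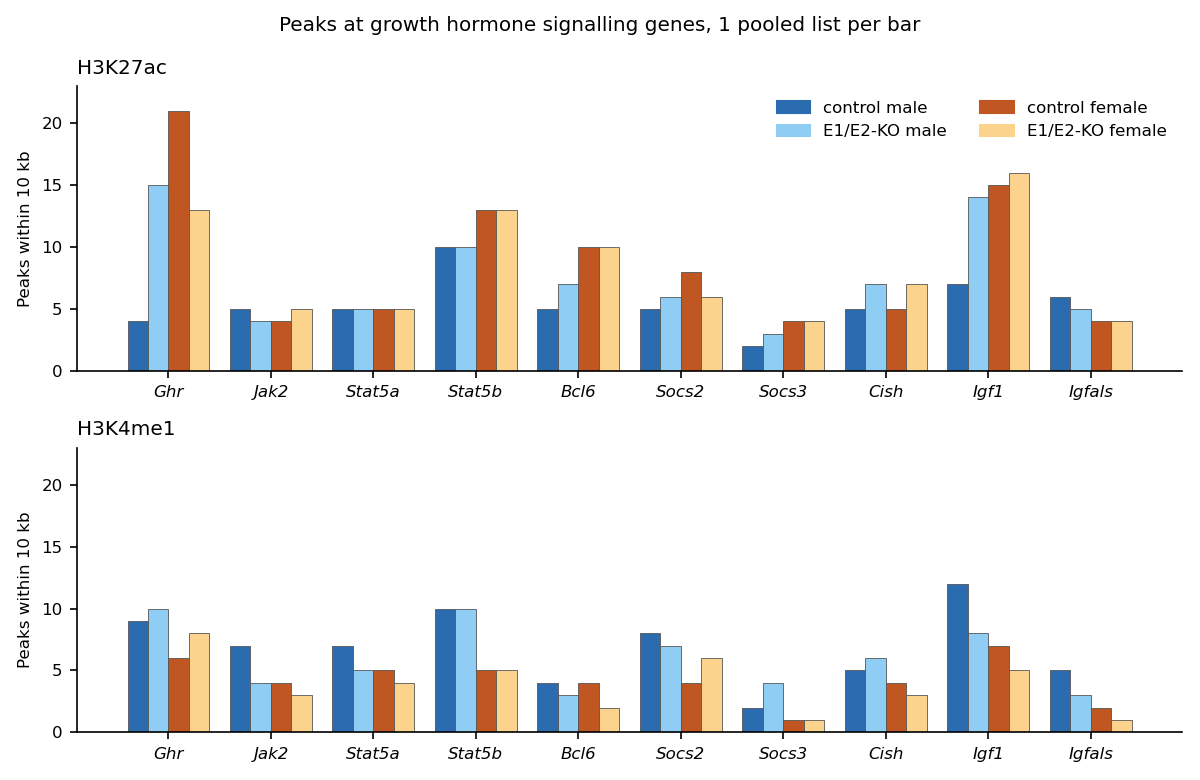
Number of H3K27ac (first panel) and H3K4me1 (second panel) peaks within 10 kb of each gene in the 4 groups. For H3K27ac Ghr runs from 4 in control males to 21 in control females, and for H3K4me1 the male lists hold more peaks at most genes.

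Peaks with no overlap in the other list were counted over the 10 genes together. For H3K27ac 32 were only in E1/E2-KO males and 7 only in control males, a gained share of 82.1% (95% Wilson interval 67.3 to 91, counting error only), where the genome had 91.5%. Ghr gave 13 of the gained peaks and Igf1 7. In females 16 were only in E1/E2-KO and 27 only in control, 37.2% (24.4 to 52.1), where the genome had 47.9%. Between control males and females 5 and 46 were specific to 1 list, 9.8% male (4.26 to 21), where the genome had 11%. Between E1/E2-KO males and females 14 and 19 were specific to 1 list, 42.4% male (27.2 to 59.2), where the genome had 61%, and with peaks within 1 kb merged first the share was 55%. These peaks are not replicates of a condition, and the intervals make no test against the genome. Over equal numbers of the widest peaks, gains and losses in males were 9 and 14, and control males and females had 13 each. With the widest 50% of each list, gains and losses in females were 8 and 5, which also turns the direction round.

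**Figure D5:**
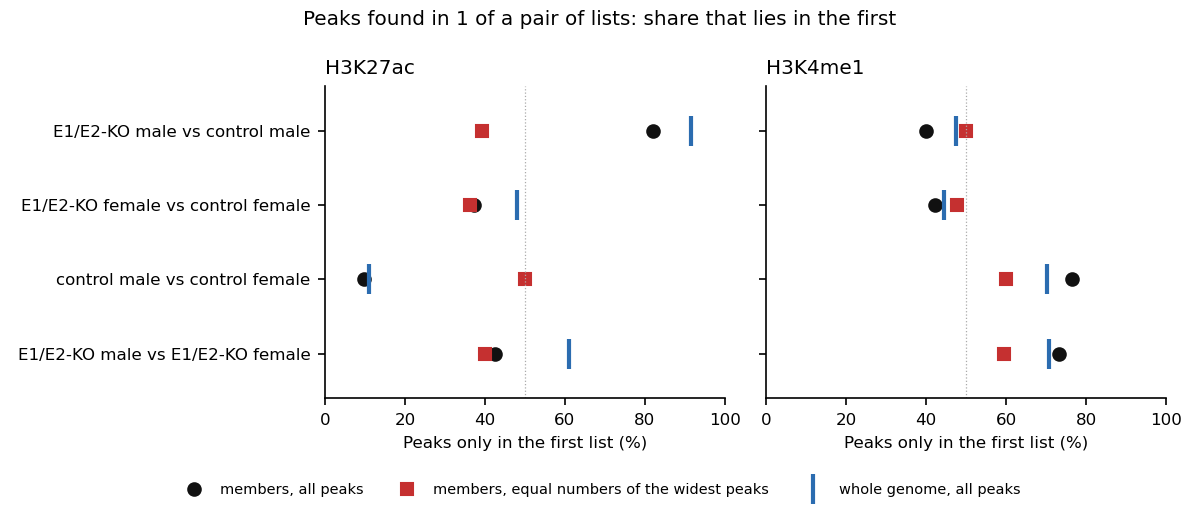
Percent of list-specific peaks that are in the first list of each comparison, for the 10 genes with all peaks, the 10 genes with equal numbers of the widest peaks, and the genome. For H3K27ac in males the 10 genes give 82.1% with all peaks and the genome 91.5%.

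Without the control male list, an alternative chosen after seeing the data, 52 of 107 H3K27ac loci (48.6%) were in every remaining list, where the genome had 44.3%. With it, 37 of 111 (33.3%) were in all 4, where the genome had 30.1%. Another 15 loci (13.5%) were in all but control male, where the genome had 13.4%.

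H3K4me1 peaks were more numerous in the male lists at nearly all of these genes. Control males had more peaks than control females at 9 of 10 genes (39.9% of all genes, and 56.9% of those with H3K27ac at a start in all 4 lists), and Bcl6 had 4 in each. E1/E2-KO males had more than E1/E2-KO females at 10 of 10 (43.4% and 58.3%). With equal numbers of the widest peaks each count was 6 of 10, where controls gave 23.3% of all genes and 32.6% of those with constant H3K27ac at a start, and E1/E2-KO gave 26% and 33.9%. List-specific H3K4me1 peaks were 39 male and 12 female in controls, 76.5% male (63.2 to 86), where the genome had 70.2%. In E1/E2-KO they were 33 and 12, 73.3% male (59 to 84), where the genome had 70.7%. Between genotypes, E1/E2-KO males had fewer H3K4me1 peaks than control males at 6 of 10 genes (29.1% and 45.3%) and more at 3 (25% and 26.5%). With equal numbers of the widest peaks they had fewer at 4 (25.2% and 39.8%) and more at 4 (24.4% and 26.4%). E1/E2-KO females had fewer than control females at 6 of 10 (30.9% and 46.7%) and more at 2 (20.7% and 23.4%). List-specific H3K4me1 peaks were 18 in E1/E2-KO and 27 in control males, 40% (27 to 54.5), where the genome had 47.5%. In females they were 11 and 15, 42.3% (25.5 to 61.1), where the genome had 44.6%. The male share crossed to 52.9% with the widest 50% of each list. Of 99 H3K4me1 loci 14 were in both male lists and neither female list (14.1%), where the genome had 6.42%. Both female lists and neither male list held 2 (2.02%), where the genome had 1.19%. H3K4me1 lay at a start of 6 of the 10 genes in control males (53% of all genes, and 83.6% of those with constant H3K27ac at a start), 5 in E1/E2-KO males (52.2% and 75%), 4 in control females (46.1% and 72.5%) and 3 in E1/E2-KO females (42.3% and 62.8%). Stat5a, Cish and Igf1 had it in all 4 lists, 3 of 10 where 34.1% of all genes and 53.6% of those with constant H3K27ac did. When a peak had to overlap the start itself, the counts were 3 in control males (15.5% of all genes, and 16.4% of those with constant H3K27ac), 0 in E1/E2-KO males (17.9% and 15.5%), 0 in control females (12.4% and 12.8%) and 0 in E1/E2-KO females (10.7% and 8.74%). Such overlap was thus uncommon over all genes too.

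Around the main starts 7 of 10 genes (70%) had a ratio of observed to expected CpG of at least 0.6, where 46.2% of all genes did. The ratio was highest at Bcl6 (0.981) and lowest at Igfals (0.151), Cish (0.304) and Igf1 (0.482). Igfals and Socs3 (0.794), both covered in E1/E2-KO males, lie on either side of that threshold.

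Among 25 other genes of the pathway, 5 were at least 50% covered in control males, 7 in E1/E2-KO males, 3 in control females and 5 in E1/E2-KO females, where all genes gave 29.9%, 32.5%, 29.8% and 28.7%. In E1/E2-KO males coverage was at least 25 points higher at 5 of 25 (9.86% of all genes) and lower at 1 (6.07%), and in females it was higher at 3 (6.29%) and lower at 2 (7.59%). The insulin receptor substrate genes were higher in both sexes: Irs1 went from 7.53% to 58.3% in males and from 4.79% to 65.1% in females, and Irs2 from 17.8% to 100% and from 0% to 100%. Igfbp1 and Igfbp2, which encode IGF binding proteins, went from 0% to 45.1% and 29% in males. In females Igfbp1 went the other way, from 19.9% to 0%, and Igfbp2 from 11.9% to 14.7%. Socs6 went from 25.5% to 55.5% in males, all of it outside its longest coding transcript, while Socs5 went from 100% to 8.44%. The phosphatase gene Ptpn1 went from 28.9% to 0% in females and from 23.8% to 0% in males, just under the threshold. Socs1 went from 100% to 0% in females and was at 100% in both male lists. Cux2, a transcription factor gene, went from 30.5% to 71.2% in females and from 100% to 98.5% in males. Coverage does not measure the amount of mark inside a region. The paper reports that Cux2 lost H3K27me3 and rose in expression in E1/E2-KO males. Igf1r, the IGF1 receptor, was 99.3% to 100% covered throughout, yet had 0 H3K27ac peaks in control males and 12, 7 and 6 in the others. Igfbp3 was 100% covered in all 4 lists.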

How the data were processed

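The authors sequenced liver ChIP DNA as 50 nt paired-end reads and mapped them to mm9. Per the labels, the processing notes name Bowtie2 2.3.2, MACS2 2.1.1 and SICER 1.1. SICER, with a 400 bp window and a 2400 bp gap, gave the H3K27me3 regions, and MACS2 gave the peaks of the other marks. The deposited values are positions only (chromosome, start, end), with no score, count or depth, and livers were pooled. SICER ends were extended by 1 base. Coverage, overlaps of at least 1 bp, peaks within 10 kb and peaks within 1 kb of a start were computed with Python 3.11.15, NumPy 2.4.6 and SciPy 1.17.1, and figures with matplotlib 3.10.9. Gene positions came from GENCODE M1. Thresholds were 50% for covered and 25 points for a change. Named genes were all 10 genes, the 3 nearest to Bcl6, and Ezh1 and Ezh2. Pathway genes were named if they were covered, changed or had a start peak in some lists only. Hepatocyte markers were named too, as were some genes inside H3K27me3 regions over or near the 10. The genes and lists were chosen with earlier results of these data known. Alternatives were other thresholds, spans, windows and equal numbers of peaks. On simulated lists 250 of 250 removed and 180 of 180 added peaks were found, and 0 of 500 coverage windows were wrong.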

Additional observations from a re-analysis of the deposited data

Results flagged for a closer look

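At Ghr the number of H3K27ac peaks within 10 kb moved in opposite directions in the sexes. E1/E2-KO minus control was 11 peaks in males and -8 in females. The difference was not tested, since each group has 1 list. With equal numbers of the widest peaks the 4 values were 4 and 5 in males and 7 and 6 in females, control first.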

How the results depend on the processing

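Of 198 recomputed summary values, 154 stayed within their limits (1.5 times a count, the 95% interval of a share), 38 moved beyond them and 6 reversed, that is, a share crossed 50%. Of 400 values for single genes 19 changed sign, also where the original difference was a single peak. With only the widest 50% of H3K27me3 regions, the counts of covered genes in control and E1/E2-KO males and every change of at least 25 points fell to 0, because the regions that gave them are narrower than the median region of their list. A change of 50 points gave 0 genes lower in E1/E2-KO than control females and 0 higher in control males than females, each of which had been Socs2 alone, and left the 3 genes higher in E1/E2-KO males than females. The transcript with the longest coding sequence, chosen after seeing the data, also gave 0 for these first comparisons and for covered genes in control males, and 2 genes higher in E1/E2-KO males than females. From 25% covered, control females had 1 gene, and 3 kb added to the span gave 1 gene higher in E1/E2-KO females. Peaks overlapping a start numbered 6 genes for H3K27ac in control males and, for H3K4me1, 3 in control males and 0 in the other lists. Percentages in parentheses beside the next counts are shares of all genes under the same setting. Within 50 kb, 10 genes had more H3K27ac peaks in E1/E2-KO than control males (65.3%, and 81.1% of those with constant H3K27ac at a start) and 0 fewer (3.46%), 0 had more in control males than females (5.45%), and 4 had more in E1/E2-KO males than females (35.7%). With equal numbers of the widest peaks, 3 had more (15.5%) and 7 fewer (19%) in E1/E2-KO than control males. In E1/E2-KO than control females 3 had more (15.9%) and 4 fewer (15.7%), and 6 had more (17.8%) and 2 fewer (16%) in control males than females. For H3K4me1 6 had more (26%) and 1 fewer (24%) in E1/E2-KO males than females and 1 fewer in control males than females (23.8%). In the gene span alone, for H3K4me1, 1 had more in E1/E2-KO than control males (19.4%), 3 had fewer in E1/E2-KO than control females (21.7%) and 1 had fewer in E1/E2-KO males than females (9.19%). Shares of the first list reversed to 45.2% (E1/E2-KO against control males) and 52.6% (control males against females) of H3K27ac peaks, and to 39.1% of list-specific ones in the first of these; in the second these moved to 50%. For H3K4me1 in controls the list-specific share became 60%. With the widest 50% of peaks list-specific H3K27ac shares were 94.1% in males and, reversed, 61.5% in females, and H3K4me1 shares 55% between control sexes and, reversed, 52.9% for E1/E2-KO against control males. Merging peaks within 1 kb reversed the H3K27ac share of E1/E2-KO males against females to 55%. Without the control male list, chosen after seeing the data, 48.6% of H3K27ac loci were in every list. Differences for single genes changed sign as follows with equal numbers of peaks. For H3K27ac they were Bcl6 (-1), Socs2 (-2) and Igf1 (-2) in E1/E2-KO minus control males, Jak2 (-2) and Socs2 (1) in E1/E2-KO minus control females, Stat5b (2) and Socs2 (2) in control males minus females, and Ghr (-1), Jak2 (2) and Socs3 (1) in E1/E2-KO males minus females. For H3K4me1 they were Bcl6 (1) and Socs2 (2) in E1/E2-KO minus control males and Ghr (-3) in E1/E2-KO males minus females. Within 50 kb they were, for H3K27ac, Jak2 (1) and Igfals (1) in E1/E2-KO minus control males, Jak2 (-2) in control males minus females and Socs3 (1) in E1/E2-KO males minus females, and for H3K4me1 Ghr (-2) in E1/E2-KO minus control males. Over the span alone it was H3K4me1 at Stat5a (-1) in E1/E2-KO males minus females. The cause was not tested beyond these settings. No paired analysis was possible because the lists pool the livers, and for the same reason no liver could be left out. Read depth, which limits what could be called, is unknown.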
